A study of Mus musculus with 12 samples.

Results

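The 10 genes described here encode proteins by which skeletal muscle satellite cells are recognised and held in place, or which mark these cells. They are Vcam1, Itga7, Cdh15, Sdc4, Sdc3, Cxcr4, Calcr, Cd34, Ncam1 and Chrdl2. They were chosen by gene symbol, and each symbol matched 1 of the 23586 genes in the table. Of the 10, 9 passed the low-value filter (10 or more normalized counts in 3 or more libraries) and were tested within a set of 14580 genes, and Calcr did not. A normalized count is the number of reads of a gene divided by a scaling factor of its library.

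The libraries came from cultured mouse muscle stem cells of the genotype Pax3nLacZ-IRES-GFP, which all groups share, so that GFP reports the Pax3 locus. Cells were sorted as GFP-positive (PAX3-positive) or GFP-negative (PAX3-negative) and cultured with 20% serum and bFGF at 4 ng/mL. They received 2 µg of the plasmid pCR3-Six2, which carries the mouse Six2 coding DNA, or of empty pCR3. The 4 groups of 3 libraries are GFP-negative with control plasmid, GFP-negative with SIX2 plasmid, GFP-positive with control plasmid and GFP-positive with SIX2 plasmid. Each library was made from at least 50000 cells in high serum at low density. The labels give no age, sex or muscle, do not name the antibodies of the sort, and do not tell whether replicate libraries stem from different animals or dishes. The p-values therefore measure the spread between these libraries, which may be technical.

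Satellite cells lie between the muscle fibre and its basal lamina. In background knowledge, integrin alpha 7 binds laminin of the lamina, M-cadherin (Cdh15) joins the cell to the fibre, and the heparan sulfate chains of syndecan-3 and syndecan-4 hold growth factors and matrix. The calcitonin receptor and CD34 are known as markers of quiescent satellite cells, and NCAM1 is kept in myoblasts and newly formed myotubes. The genes therefore mix markers of the resting, the proliferating and the differentiating state.

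Total reads per library ranged from 12438885 to 47299937, and from 12632428 to 15492340 in the GFP-positive SIX2-labelled group. The gene on the plasmid gave no check of the labels. The labels state that transfection was verified by RT-qPCR of Six2. In these libraries Six2 had 2 to 36 reads and passed the threshold in no comparison, so the groups are called SIX2-labelled and control-labelled, and a direction is a direction between labels. Pax3 did not check the GFP labels either, with means of 71.4 normalized counts in GFP-negative and 72.2 in GFP-positive control-labelled libraries, and it fell with the SIX2 label in these populations (log2 −2.06 and −2.82). The 6 myogenic markers summed to 215490 to 318953 normalized counts, nearly all from Des and Chrna1, and Msc was at 0 in 3 libraries. Endothelial markers summed to 22.3 to 135 normalized counts, and haematopoietic markers to 173 to 238.

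The genes spanned several orders of magnitude. Per kilobase of the longest coding transcript, the mean level over the 12 libraries was 7901 normalized counts for Itga7, 5806 for Ncam1 and 1523 for Cdh15. Sdc4 followed with 1132, Sdc3 with 541, Vcam1 with 208 and Cxcr4 with 106 per kilobase. Cd34 (13.0) was low but had at least 14 reads in every library, and Chrdl2 (5.43) and Calcr (0.272 per kilobase) were close to the detection limit. Before division by length, Ncam1 and Itga7 exceeded 99.7% of all genes in mean normalized count, Vcam1 exceeded 77.3% and Calcr 21.0%. Calcr, Chrdl2 and Cd34 were thus the lowest of the 10, and the laminin receptor and NCAM1 the highest.

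**Figure D1:**
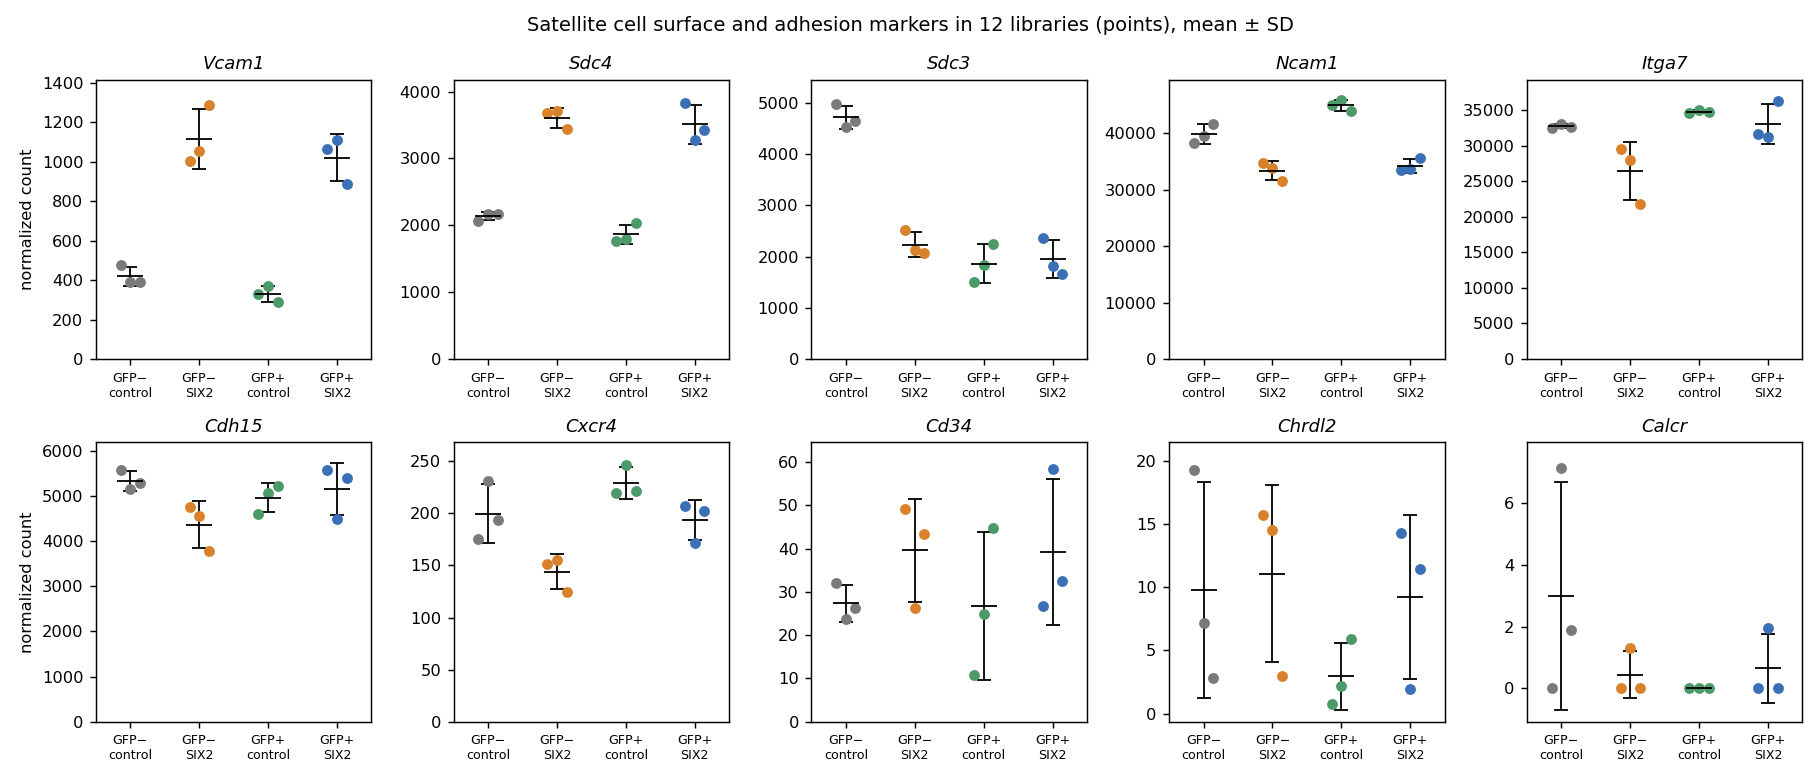
Normalized counts of the 10 genes in each of the 12 libraries (points), by GFP and plasmid label, with the mean and SD of each group of 3 (black). Vcam1 and Sdc4 separate by plasmid label in both sorted populations, while Sdc3 is high in the 3 GFP-negative control-labelled libraries alone.

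With the SIX2 label, Vcam1 and Sdc4 rose and Ncam1 fell in each of the sorted populations. In GFP-negative libraries, Sdc3 also fell, and Itga7, Cdh15 and Cxcr4 fell by smaller amounts. Of the 9 tested genes, 2 were higher and 5 lower in GFP-negative SIX2-labelled libraries (limma-trend, adjusted p under 0.05), beside 27.9% of all tested genes called (13.6% higher and 14.3% lower). In GFP-positive libraries 2 were higher and 1 lower, beside 23.3% of all genes (12.1% higher and 11.2% lower). The median log2 difference of the 9 genes was −0.26 and 0.06 in GFP-negative and GFP-positive libraries, against 0.00 and −0.01 over all tested genes. The libraries of the 2 labels did not overlap for 7 of the 9 genes in GFP-negative and for 4 in GFP-positive libraries, beside 46.3% and 36.8% of all tested genes. Quantile normalization changed the split in GFP-negative libraries to 2 higher and 2 lower.

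Between the sorted populations fewer genes differed. Under the control label, Sdc3 was lower in GFP-positive libraries and no other gene of the 10 passed the threshold, beside 3.48% of all tested genes (0.919% higher and 2.56% lower). Under the SIX2 label none of the 9 passed with limma-trend, beside 0.192% of all genes (0.0137% higher and 0.178% lower), and DESeq2 on recovered reads called Itga7 alone (adjusted p = 0.0493). Groups did not overlap for 5 of the 9 genes under the control label and for 2 under the SIX2 label, beside 27.2% and 17.2% of all genes. The interaction, which tests whether the plasmid-label difference itself differs between populations, called 0 of the 9 and 0 of all genes with limma-trend, 0 with edgeR, and 558 of all genes, Sdc3 among them, with DESeq2. At an unadjusted p under 0.05 it held 2 of the 9, Sdc3 and Cdh15, and 16.7% of all genes. These comparisons share libraries with those by plasmid label and are no independent evidence of them.

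**Figure D2:**
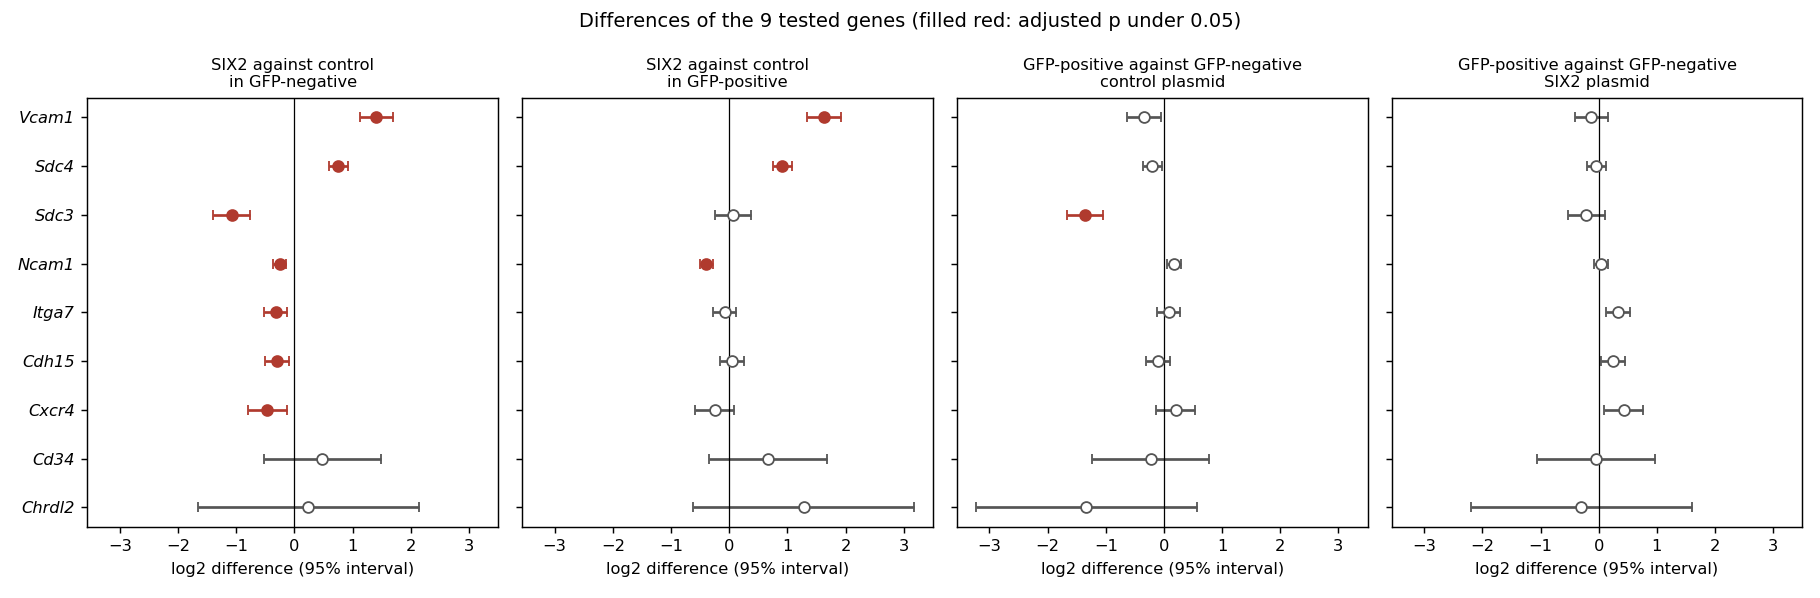
Log2 differences of the 9 tested genes with 95% intervals in the 4 comparisons, from limma-trend on log2(normalized count + 1); filled red points passed the adjusted threshold of 0.05. Red points number 7, 3, 1 and 0 from left to right, and the intervals of Cd34 and Chrdl2 are the widest.

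Vcam1 (ENSMUSG00000027962.14, GRCm38 chromosome 3, 116109949 to 116129688, minus strand) encodes an immunoglobulin-family adhesion protein that binds integrin alpha 4 beta 1. It had 476, 392 and 389 normalized counts in GFP-negative control-labelled libraries and 1003, 1054 and 1286 in GFP-negative SIX2-labelled libraries. In GFP-positive libraries it had 330, 369 and 290 with the control label and 1065, 1111 and 889 with the SIX2 label. Every SIX2-labelled library was above every control-labelled library, in a range of 222 to 2138 reads. For GFP-negative cells the log2 difference was 1.41 ± 0.13 (SE; limma-trend adjusted p = 1.11e-05), and the group mean went from 419 ± 48.9 to 1114 ± 151 (SD, n = 3), a ratio of 2.66. In GFP-positive libraries it was 1.63 ± 0.13 (adjusted p = 4.39e-06), from 330 ± 39.5 to 1021 ± 117, a ratio of 3.10. Vcam1 ranked 87th and 36th by p among all tested genes. The interaction was 0.22 (95% interval −0.18 to 0.63; limma-trend adjusted p = 0.593), so a difference in size between the populations was not resolved. Under the control label all 3 GFP-positive libraries were below the GFP-negative ones, by −0.35 on the log2 scale, which missed the threshold (limma-trend adjusted p = 0.168).

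Endothelial cells also make VCAM1, so their markers stand beside it. The summed level of 7 endothelial markers present in the table was 69.8 to 135 normalized counts in GFP-negative and 92.4 to 131 in GFP-positive control-labelled libraries. It was 22.3 to 60.6 and 55.4 to 64.3 in the SIX2-labelled groups, below every control-labelled library. Vwf carried this difference, with means of 78.8 and 25.1 (GFP-negative) and of 85.9 and 40.6 (GFP-positive) for the control and SIX2 labels. The other 6 markers together had means of 16.7 and 15.9, and of 21.9 and 20.1. Of the list, Vwf alone passed the low-value filter. Cdh5 had a median of 0.329, and Emcn was at 0 in 7 of the 12 libraries. In bulk RNA, fewer cells of a type and less RNA per cell cannot be told apart.

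Sdc4 and Sdc3 belong to the syndecans, transmembrane proteins that carry heparan sulfate. Sdc4 (ENSMUSG00000017009.3, chromosome 2, 164424247 to 164443887, minus strand) had 2069, 2175 and 2176 normalized counts in GFP-negative control-labelled and 3683, 3705 and 3439 in GFP-negative SIX2-labelled libraries. The GFP-positive libraries had 1772, 1803 and 2031 with the control label and 3835, 3270 and 3423 with the SIX2 label. The plasmid-label groups did not overlap in either population. Its log2 rise was 0.75 ± 0.08 (SE) among GFP-negative libraries, or 1.69 times the control mean (limma-trend adjusted p = 1.71e-05). Among GFP-positive libraries the rise was 0.91 ± 0.08, or 1.88 times the control mean (4.73e-06). The difference between these rises was 0.16, with a 95% interval of −0.08 to 0.39.

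Sdc3 (ENSMUSG00000025743.14, chromosome 4, 130792537 to 130826319, plus strand) followed another pattern. It had 4972, 4536 and 4649 normalized counts in the 3 GFP-negative control-labelled libraries, the highest of all 12. The other groups had 2522, 2122 and 2066 (GFP-negative, SIX2 label), 1495, 1846 and 2254 (GFP-positive, control label) and 2365, 1816 and 1658 (GFP-positive, SIX2 label), and these 3 groups overlapped. The SIX2-label difference of Sdc3 among GFP-negative libraries was −1.08 ± 0.15 (SE; limma-trend adjusted p = 0.000139), and the mean fell by 52.6%. Between the control-labelled populations the log2 difference, GFP-positive minus GFP-negative, was −1.36 ± 0.15 (0.000396), and Sdc3 ranked 11th by p in that comparison. Both comparisons rest on the same 3 GFP-negative control-labelled libraries. In GFP-positive libraries the plasmid-label difference was 0.06, with a 95% interval of −0.25 to 0.38.

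The interaction for Sdc3 was 1.15 ± 0.21 (SE), the 14th smallest p of all genes, and missed the threshold with limma-trend (adjusted p = 0.0751). It passed with library weights (adjusted p = 0.0177), with DESeq2 on recovered reads (3.63e-05), without GFP-positive control library 3 (0.0163) and without GFP-positive SIX2 library 3 (0.0389), and over all alternatives its adjusted p lay between 3.63e-05 and 0.21. Within each library, the ratio of Sdc3 to Sdc4 normalized counts was 2.08 to 2.40 in the GFP-negative control-labelled group and 0.844 to 1.11 in the GFP-positive control-labelled group. In SIX2-labelled libraries it was 0.573 to 0.685 (GFP-negative) and 0.484 to 0.617 (GFP-positive). The ratio was therefore lower with the SIX2 label in both populations. Of the pair, both genes passed the threshold in GFP-negative libraries and Sdc4 alone in GFP-positive libraries.

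A measured property of the libraries moves with Sdc3. Its longest coding transcript has 58.7% GC, and its most GC-rich window of 200 bases has 81.5%, above 94.7% of tested genes. Genes with the most GC-rich windows (1493 genes at 79% or more) deviated from the mean of all libraries by a median of 0.10 to 0.16 on the log2 scale in GFP-negative control-labelled libraries and by −0.13 to 0.07 elsewhere. Their median difference between the control-labelled populations was −0.19, and 10.0% of them were called there, against 2.73% of other genes. With the trend on this window removed, Sdc3 differed by −1.19 between the control-labelled populations (limma-trend adjusted p = 0.000285) and fell by 1.00 with the SIX2 label in GFP-negative libraries (7.1e-05).

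The stretch of 250 bases before the RefSeq start site (GRCm38.p6) is shown for the pair, since these paralogues differ in pattern. The Sdc4 window is chr2:164443189-164443438 (minus strand) and the Sdc3 window chr4:130792287-130792536 (plus strand). The Sdc4 start lies inside the longer GENCODE gene. Capitals mark matches to a form of the NF-kB motif (GGG, 5 bases of any kind, CC) on either strand.
Sdc4: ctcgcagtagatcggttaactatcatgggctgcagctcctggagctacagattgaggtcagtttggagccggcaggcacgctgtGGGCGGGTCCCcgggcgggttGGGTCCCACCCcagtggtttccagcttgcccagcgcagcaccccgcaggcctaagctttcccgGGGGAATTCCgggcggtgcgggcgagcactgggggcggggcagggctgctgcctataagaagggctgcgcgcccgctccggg
Sdc3: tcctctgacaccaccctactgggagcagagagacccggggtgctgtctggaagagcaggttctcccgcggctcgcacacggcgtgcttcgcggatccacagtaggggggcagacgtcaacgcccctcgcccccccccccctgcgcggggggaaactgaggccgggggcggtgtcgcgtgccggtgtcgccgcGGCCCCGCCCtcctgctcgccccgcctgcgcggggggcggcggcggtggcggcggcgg
The Sdc4 window held 5 matches, counting overlapping ones, the nearest of them GGGGAATTCC, which begins 82 bases before the start site. The Sdc3 window held 1 match, at 58 bases. Of 32851 promoter windows of this length, 45.8% held at least 1 match, so its presence is common. The share of windows with 5 matches was not computed. The 45.8% is not matched for GC content, so the 5 and 1 matches are a description only. Neither window held CAGCTG (an E-box of myogenic factors, in 13.0% of windows), TCAGGTT (the MEF3 motif, in 3.49%) or TGGGAA (the RBPJ motif, in 21.6%). No match says only that these letters are not in the window. GC content was 68.0% for the Sdc4 and 76.4% for the Sdc3 window, against a median of 52.4%. Of the 10 genes, 6 had a window in the RefSeq table.

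The other syndecans, read for comparison, resembled Sdc4 in direction. Sdc2 rose with the SIX2 label by 0.32 (GFP-negative) and 0.33 (GFP-positive) on the log2 scale (limma-trend adjusted p = 0.00865 and 0.00876). Sdc1 rose by 0.27 in the GFP-negative comparison (limma-trend adjusted p = 0.0196) and differed by 0.15 in the GFP-positive one (0.195). The glypican Gpc1, another heparan sulfate proteoglycan, resembled Sdc3. Its mean was 17234 ± 1219 normalized counts (SD, n = 3) in GFP-negative control-labelled libraries, against 5051 ± 234, 6914 ± 2269 and 5746 ± 1938 in the GFP-negative SIX2, GFP-positive control and GFP-positive SIX2 groups. It fell by 1.77 with the SIX2 label among GFP-negative libraries (limma-trend adjusted p = 6.18e-05). The highest-GC window of Gpc1 was 79.0%. Itgb1, the integrin beta 1 gene with a window of 78.0%, had another pattern. Its means were 33920 and 25255 normalized counts in the GFP-negative control and SIX2 groups, and 30387 and 22748 in the GFP-positive ones. Whether GC content has a part in the Gpc1 values was not tested.

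**Figure D3:**
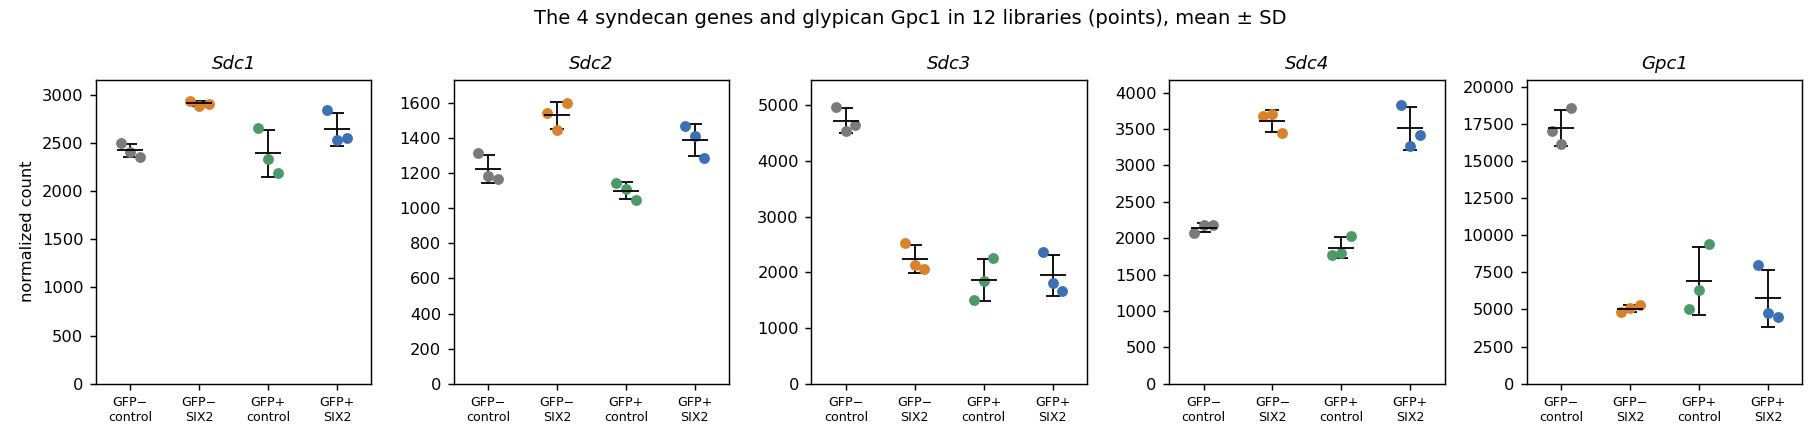
Normalized counts of the 4 syndecan genes and of Gpc1 in each library (points), with the mean and SD of each group of 3 (black). Sdc1, Sdc2 and Sdc4 have their higher means in the SIX2-labelled groups, and Sdc3 and Gpc1 have their highest values in the 3 GFP-negative control-labelled libraries.

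Ncam1 (ENSMUSG00000039542.16, chromosome 9, 49502136 to 49798925, minus strand), the neural cell adhesion molecule, fell in both populations. It had 38290, 39537 and 41736 normalized counts in GFP-negative control-labelled libraries and 34776, 33826 and 31577 in GFP-negative SIX2-labelled ones. GFP-positive libraries had 44939, 45976 and 43950 with the control label and 33414, 33636 and 35648 with the SIX2 label, again without overlap. In GFP-negative cells the mean fell by 16.2% (log2 −0.26 ± 0.05 SE, limma-trend adjusted p = 0.0033). In GFP-positive cells the mean fell by 23.85% (−0.39 ± 0.05, limma-trend adjusted p = 0.000196). With quantile normalization the fall was −0.11 in GFP-negative libraries (adjusted p = 0.118) and −0.22 in GFP-positive libraries (0.00764). Under the control label Ncam1 was 12.8% higher in all 3 GFP-positive than in all 3 GFP-negative libraries, which missed the threshold (limma-trend adjusted p = 0.0919) and passed with DESeq2 (0.0473) and with library weights (0.0151).

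Differentiation genes moved with Ncam1. Of 20 tested genes of myotube formation and contraction, 18 were lower and 0 higher with the SIX2 label in each population. Of all tested genes, 14.3% were lower in GFP-negative and 11.2% in GFP-positive SIX2-labelled libraries. The median log2 difference of the 20 genes was −0.43 (GFP-negative) and −0.46 (GFP-positive), against 0.00 and −0.01 over all tested genes. The smallest p-values were those of Mymx, the small membrane protein needed for myoblast fusion, which fell (log2 −0.83 and −0.88), and of the slow troponin Tnnt1, at −0.69 and −0.67. Between control-labelled populations 8 of the 20 were higher in GFP-positive libraries and 0 lower, beside 0.919% higher and 2.56% lower of all tested genes. Among the 8 was the fast troponin Tnnc2 at 0.48, the direction in which Ncam1 lay. Whether the state of differentiation has a part in the Ncam1 values was not tested.

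Itga7 (ENSMUSG00000025348.9, chromosome 10, 128933818 to 128958282, plus strand) and Cdh15 (ENSMUSG00000031962.6, chromosome 8, 122847966 to 122867397, plus strand) encode the laminin-binding integrin alpha 7 and M-cadherin. Itga7 had 32552, 33040 and 32691 normalized counts in GFP-negative control-labelled and 29603, 27922 and 21801 in GFP-negative SIX2-labelled libraries, with no overlap. In GFP-positive libraries it had 34579, 35020 and 34692 with the control label and 31642, 31253 and 36331 with the SIX2 label, which overlapped. Itga7 differed by −0.32 ± 0.09 (log2, SE; limma-trend adjusted p = 0.0194) among GFP-negative libraries. Among GFP-positive ones the difference was −0.08 (95% interval −0.27 to 0.12). The interaction of 0.25 had an interval of −0.03 to 0.53. SIX2 library 3 held the lowest GFP-negative value, and without it the difference was −0.19 (adjusted p = 0.0555).

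Cdh15 had 5561, 5146 and 5274 normalized counts in GFP-negative control-labelled libraries, against 4762, 4544 and 3779 with the SIX2 label. In GFP-positive libraries the values were 4600, 5071 and 5214 with the control label and 5577, 4488 and 5389 with the SIX2 label. Groups were apart in the GFP-negative population alone, where the log2 difference was −0.29 ± 0.10 (SE; limma-trend adjusted p = 0.0359). In GFP-positive libraries it was 0.05 (95% interval −0.16 to 0.26), and the interaction was 0.34 (0.05 to 0.64; adjusted p = 0.229). The GFP-negative calls of both genes were sensitive to the setting: the adjusted p reached 0.195 for Itga7 and 0.23 for Cdh15. Their transcripts have 57.8% and 59.9% GC, above 89.2% and 95.4% of tested genes, and with the transcript GC trend removed the differences were −0.19 (adjusted p = 0.105) and −0.13 (0.23).

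Cxcr4 (ENSMUSG00000045382.6, chromosome 1, 128588199 to 128592293, minus strand) encodes the receptor for the chemokine CXCL12. It had 176, 231 and 193 normalized counts in GFP-negative control-labelled libraries and 151, 155 and 125 in GFP-negative SIX2-labelled ones. In GFP-positive libraries it had 220, 247 and 221 with the control label and 207, 171 and 202 with the SIX2 label. SIX2-labelled libraries were below control-labelled ones in each population. Among GFP-negative libraries Cxcr4 differed by −0.47 ± 0.16 (log2, SE; limma-trend adjusted p = 0.0384). Among GFP-positive libraries the difference was −0.25 ± 0.16 (0.292). The first of these missed the threshold in 8 of 25 alternatives, with an adjusted p of up to 0.163, reached without GFP-negative control library 2, and the interaction was 0.22 (95% interval −0.25 to 0.70).

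The ligand and the other receptor of this axis changed the other way. Cxcl12 rose from 500 to 1024 normalized counts in GFP-negative and from 606 to 1122 in GFP-positive libraries (log2 1.04 and 0.89; limma-trend adjusted p = 8.72e-05 and 0.000341). Ackr3, the scavenging CXCL12 receptor, rose by 0.61 and 1.00 (adjusted p = 0.00357 and 0.000138), and differed by −0.78 between GFP-positive and GFP-negative control-labelled libraries (0.00894).

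Cd34 (ENSMUSG00000016494.9, chromosome 1, 194938819 to 194961279, plus strand), a sialomucin, was detected in all libraries with 14 to 72 reads. GFP-negative libraries had 32.1, 23.8 and 26.3 normalized counts with the control label and 49.3, 26.3 and 43.3 with the SIX2 label. The values were 10.7, 24.9 and 44.7 in GFP-positive control-labelled and 26.8, 58.5 and 32.6 in GFP-positive SIX2-labelled libraries. All groups overlapped. The plasmid-label differences of 0.48 and 0.67 had 95% intervals of −0.53 to 1.49 and −0.34 to 1.68, so the spread between libraries did not resolve a change of either sign. GFP-positive control libraries 1 and 3, for example, had 14 and 53 reads. The antisense gene Gm16897 overlaps its exons and had 0 to 10.7 normalized counts.

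Chrdl2 (ENSMUSG00000030732.13, chromosome 7, 100006172 to 100034728, plus strand) encodes a secreted BMP-binding protein and is not a surface protein itself. It had 1 to 22 reads per library and 98 in all. Its normalized count was 19.3, 7.14 and 2.81 in the GFP-negative control-labelled libraries, 15.7, 14.5 and 3.01 in GFP-negative SIX2-labelled, 0.765, 2.21 and 5.91 in GFP-positive control-labelled and 14.3, 1.95 and 11.4 in GFP-positive SIX2-labelled libraries. No comparison passed the threshold, and the SE of 0.89 on the log2 scale leaves intervals such as −0.63 to 3.18 for the plasmid-label difference in GFP-positive libraries.

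Calcr (ENSMUSG00000023964.15, chromosome 6, 3685680 to 3764714, minus strand), the calcitonin receptor, had 14 reads in the 12 libraries together. Of these, 9 lay in GFP-negative control library 2 and 2 in GFP-negative control library 3, with 2 in GFP-negative SIX2 library 2 and 1 in GFP-positive SIX2 library 2. The other 8 libraries had 0 reads. In the 3 GFP-positive control-labelled libraries a count of 0 allows up to 3 reads, or 1.66 to 2.53 normalized counts, as far as counting error goes. Calcr was therefore not tested, and no difference between groups was detectable at this depth.

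Partners and ligands of the 10 proteins were read as a list of 25 genes, 23 of them tested. With the SIX2 label 7 were higher and 4 lower in each population, beside 13.6% higher and 14.3% lower (GFP-negative) and 12.1% and 11.2% (GFP-positive) of all tested genes, and the median log2 difference was 0.27 for the GFP-negative and 0.36 for the GFP-positive population, against 0.00 and −0.01 over all genes. The matrix ligand Fn1 (fibronectin) rose by 0.83 and 0.99, and the laminin chain Lamb1 by 0.90 and 1.01. Jup (plakoglobin, a cadherin-binding catenin) fell (log2 −0.87 and −0.50). The syndecan-binding adaptors Sdcbp and Cask had 1 call each, Sdcbp higher by 0.22 in GFP-negative and Cask by 0.69 in GFP-positive libraries. Itgb1, the beta 1 chain that pairs with integrin alpha 7, fell (log2 −0.43 and −0.42, limma-trend adjusted p = 0.0231 and 0.0275). Its GFP-positive groups overlapped, with 24965, 33130 and 33065 normalized counts for the control label and 24266, 25844 and 18134 for the SIX2 label. Itga4, the alpha chain of the VCAM1 receptor, rose from 69.6 to 131 normalized counts in GFP-negative libraries (log2 0.90; limma-trend adjusted p = 0.0112). Its GFP-positive means were 123 and 99.7 (−0.33; 0.34).

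Of the list of 31 other surface proteins of satellite cells, all tested, 8 were higher and 6 lower in GFP-negative and 7 higher and 3 lower in GFP-positive SIX2-labelled libraries, beside 27.9% and 23.3% of all tested genes called in either direction. The median log2 differences were 0.00 and 0.10, and the 10 calls of 31 in GFP-positive libraries are near the share over all genes. Cadherins differed in direction. Cdh11 rose from 367 to 988 and from 226 to 907 normalized counts (log2 1.47 and 2.04), whereas N-cadherin, Cdh2, fell (log2 −0.27 and −0.36). Genes of the partner and surface lists were not read under the alternative settings. The small falls of Cdh2 and Itgb1 were thus not checked there. The hyaluronan receptor Cd44 rose by 0.72 and 0.86, and the immunoglobulin-family protein Cd200 by 0.82 and 0.69. Jam3, a junctional adhesion molecule, fell (log2 −0.47 and −0.44). Between control-labelled populations Gpc1, Fzd7 and Cd44 were lower in GFP-positive libraries, and none was higher.

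**Figure D4:**
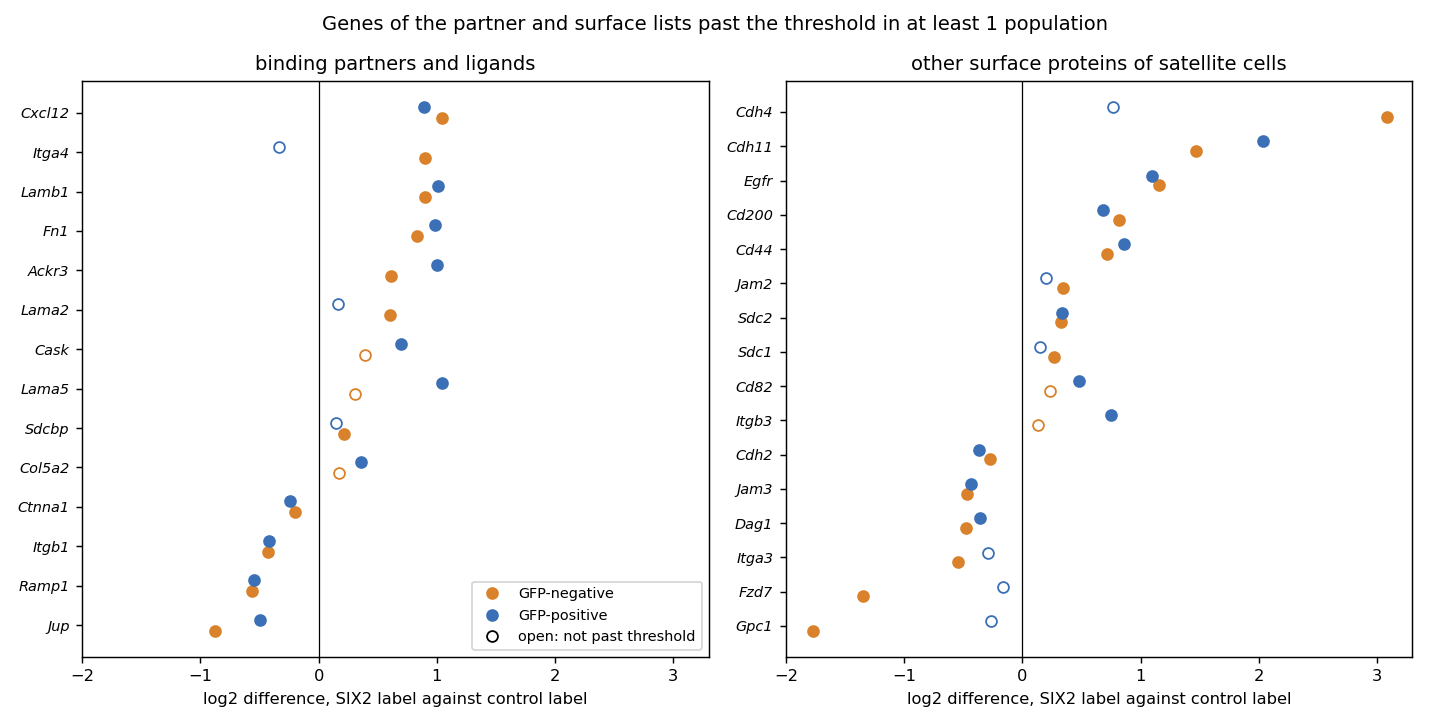
Log2 differences by plasmid label (x axis) in GFP-negative (orange) and GFP-positive (blue) libraries, for the 14 partner genes (left) and the 16 other surface genes (right) past the threshold in at least 1 population; open points did not pass. Cxcl12, Fn1, Lamb1, Cdh11 and Cd44 lie to the right of 0 in both populations, and Jup, Itgb1, Cdh2 and Jam3 to the left.

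Quiescence genes were called about as often as all tested genes (27.9% and 23.3%). Of 17 tested, 4 were higher and 2 lower in GFP-negative and 2 higher and 3 lower in GFP-positive SIX2-labelled libraries, with median log2 differences of −0.16 and −0.20. Heyl, a Notch target, rose by 1.03 and 1.45 (limma-trend adjusted p = 0.000836 and 8.34e-05). Pax7, the defining transcription factor of satellite cells, rose by 0.58 and 0.79 (limma-trend adjusted p = 0.0481 and 0.0126), as did Vcam1 and Sdc4 in direction. The GFP-negative Pax7 call lay just under the threshold, and Pax7 was not read under the alternative settings. Meis2 fell by 0.59 in GFP-negative libraries, and in GFP-positive libraries it fell by 1.00. The quiescence markers Calcr and Cd34 gave no call beside these.

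Genes whose profile over the 12 libraries was most like that of the 4 genes with the widest range of group means were named by Pearson correlation of log2 values, as a description. The 12 points share libraries and fall into groups, so high values are common: 656 of 11328 candidates exceeded 0.9 with Vcam1, 445 with Sdc4 and 61 with Sdc3. Closest to Vcam1 were Tacc3, Postn and Myl9, each with r = 0.99. Closest to Sdc4 were Gstk1 (0.99), Cpne4 and Hoxa11os (both 0.98). Closest to Sdc3 were Strn4, Yrdc and Isoc1 (all 0.96), whose means were likewise highest in GFP-negative control-labelled libraries, with 1042, 1098 and 727 normalized counts. No candidate exceeded 0.9 with Chrdl2, where the highest was Rnf220 at 0.88.

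Single markers of other cell types moved with the plasmid label beside Vcam1 and Sdc4. The calls in these short lists stand beside 27.9% (GFP-negative) and 23.3% (GFP-positive) of all tested genes called. Of 5 tested fibro-adipogenic markers, Smoc2 (log2 2.14 and 1.22 in GFP-negative and GFP-positive cells) and Ly6a (1.75 and 2.36) were higher with the SIX2 label, and none was lower. Ly6a was low, with means from 8.93 to 32.2 (GFP-negative) and from 4.77 to 27.2 normalized counts (GFP-positive). The fibro-adipogenic list summed to 2748 to 3778 normalized counts, of which Gsn had 2672 to 3667, and Dcn was at 0 in 11 libraries. Of 6 tested pericyte and smooth muscle markers, 2 were higher and 1 lower in GFP-negative and 3 higher and 1 lower in GFP-positive cells. Rgs5 was higher in GFP-negative cells (1.69), from a low mean of 7.56 to 28.5 normalized counts. Notch3 was higher in both populations (1.41 and 1.51), and Pdgfrb and Mcam in GFP-positive cells (0.87 and 1.12). Cspg4 was lower in both (−0.78 and −0.84). That list summed to 2573 to 3949 normalized counts. Of 4 tested haematopoietic markers Csf1r was higher (2.44 and 2.07), from means of 4.95 to 28.0 and of 5.50 to 21.4 normalized counts.

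Of the glial, tenocyte and myogenic markers, some were lower and some higher with the SIX2 label. Glial markers summed to 467 to 651 normalized counts in control-labelled and 272 to 360 in SIX2-labelled libraries. Ngfr supplied most of this and was the only one of 3 tested that was called, beside 27.9% and 23.3% of all tested genes. Cdh19 was at 0 in 11 libraries. Tenocyte markers summed to 417 to 704 normalized counts. Of 3 tested, Scx was lower in both populations (−0.51 and −0.60) and Mkx higher in GFP-negative cells (1.61). The summed myogenic markers were 299557 to 318953 in GFP-negative control-labelled libraries and 215490 to 242656 with the SIX2 label. In GFP-positive libraries they were 287732 to 306601 and 261954 to 282218. Of 5 tested myogenic markers, 2 were higher and 2 lower in GFP-negative and 2 higher and 1 lower in GFP-positive SIX2-labelled libraries. Des fell in both populations (log2 −0.67 and −0.29), whereas Myf5 was higher (1.32 and 0.77). The part of such cells or states in the differences above was not tested.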

How the data were processed

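Complementary DNA was made by SMART-Seq2 and fragmented with Tn5, per the labels' protocols, which keep no strand. Vcam1, Itga7, Sdc3, Cd34 and Ncam1 share exon sequence with genes on the other strand, and such reads cannot be separated. Those neighbours in the table used had at most 35.0 normalized counts, and Gm43109 (Vcam1) and Gm12970 (Sdc3) were not analysed here. STAR 2.7.11a, RSEM 1.3.3, DESeq2 1.42.0, FastQC 0.12.1, MultiQC 1.19 are listed per the submitters' processing notes, with GRCm38 as the build and no settings. The authors deposited normalized counts per gene, a signal on a linear scale divided by a size factor per library. Dividing each library by its step recovered integer reads, at a tolerance of 1e-04, for 100% of values. Of the identifiers, 99.8% matched GENCODE M21, used for positions and transcripts.

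Groups came from the titles. limma-trend (limma 3.58.1, R 4.3.3) was fitted to log2(normalized count + 1) of all 12 libraries with 4 group means, two-sided, with Benjamini-Hochberg adjustment over the 14580 genes that had 10 or more normalized counts in 3 or more libraries. Fold changes on this scale understate the change of low genes. The fit was run on simulated data with changes planted only in genes of higher level, as a check of the code and not as support for a result. The planted changes were larger than the plasmid-label differences of Ncam1, Itga7, Cdh15 and Cxcr4 and the GFP-negative one of Pax7. Low genes and small differences were therefore not covered. Alternatives were other pseudocounts, filters and scalings, library weights, a replicate block, leaving out libraries, edgeR 4.0.16 and DESeq2 1.42.0 on recovered reads, and removal of GC trends, of which the GC window was added after the data were seen. Replicate pairs differed beyond sampling noise (chi-square per degree of freedom 7.22 to 48.1). Counting limits cover counting error only.

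The genes and lists were chosen with earlier results of these data known. All 10 genes are named. List genes are those with the smallest p (up to 4 per comparison), and those outside this rule (Itga4, Itgb1, Sdc1, Sdc2, Cdh2, Fzd7, Sdcbp, Cask and, in some comparisons, others) were named after their values were seen. Likeness was read for the 4 genes with the widest range, against genes with a mean of at least 50. Figures were drawn with matplotlib 3.10.9.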

Additional observations from a re-analysis of the deposited data

How the results depend on the processing

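Vcam1 and Sdc4 by plasmid label in both populations, Ncam1 in GFP-positive libraries and Sdc3 in its comparisons within GFP-negative and between control-labelled libraries kept direction and call under all 25 alternatives. In GFP-negative libraries the 7 calls of the 9 genes became 4 with quantile normalization and 4 to 7 without single libraries. They were 4 without control library 2 and without SIX2 library 3, where Itga7, Cdh15 and Cxcr4 lost the call. The count in GFP-positive libraries stayed at 3. Between control-labelled populations 1 call became 3 with library weights and 2 with DESeq2, and under the SIX2 label 0 became 1 with DESeq2. The interaction count of 0 became 1 with library weights, with DESeq2 and without GFP-positive control library 3 or SIX2 library 3 (range 0 to 1), each time Sdc3.

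Over all genes, library weights gave 6142 calls in GFP-negative libraries (main count 4075), 1520 between control-labelled populations (main 507) and 282 for the interaction (main 0). DESeq2 gave 1087, 294 (main 28 under the SIX2 label) and 558, and removal of the GC-window trend gave 3 for the interaction. Without single libraries the counts were 2989 to 4301, 2519 to 3493, 68 to 820, 13 to 60 and 0 to 171 in the order of the report. The replicate block gave 5 calls among the 9 genes in GFP-negative libraries, without Cdh15 (adjusted p = 0.0517) and Cxcr4 (0.0551), and 298 over all genes between control-labelled populations. Deviations of same-numbered libraries from their group means correlated at −0.20 to 0.05. With 3 libraries per group and noise between replicates, this cannot decide whether the numbers mark a pairing.

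Differences that were not called changed sign: with quantile normalization Itga7 by plasmid label in GFP-positive libraries (0.083), and Cd34 (0.011) and Ncam1 (−0.047) between SIX2-labelled populations; with library weights Cdh15 by plasmid label in GFP-positive libraries (−0.011) and Cd34 between SIX2-labelled populations (0.34); with edgeR the Cd34 interaction (−0.013). Without single libraries the ranges crossing 0 were, by plasmid label, −0.34 to 0.91 for Chrdl2 in GFP-negative libraries, −0.011 to 0.15 for Cdh15 and −0.084 to 0.21 for Sdc3 in GFP-positive libraries; −0.69 to 0.29 for Cd34 between control-labelled populations; between SIX2-labelled populations −0.11 to 0.0063 for Sdc4, −0.37 to 0.18 for Cd34, −0.0033 to 0.066 for Ncam1 and −0.97 to 0.44 for Chrdl2; and −0.33 to 0.65 for the Cd34 interaction. The cause of these changes was not tested. Calcr and Chrdl2 had 14 and 98 reads in all, which limits their precision.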
